A study of Mus musculus with 6 samples.

Results

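Fkbp5, Sgk1, Camkk2, Tmprss2, Steap4, Zbtb16, Eaf2 and Ndrg1 are 8 genes that are commonly read as targets of the androgen receptor inside prostate cells, as opposed to the secretory proteins that the gland releases. They were taken by symbol from the deposited table of 34745 mouse genes, in which all 8 were found. Their RNA was measured in the prostates of 6 male C57BL/6 mice that were young adults when the experiment began. In the T + E2 group, 3 mice carried a slow-release pellet of testosterone and estradiol under the skin for 12 weeks, and in the CON group 3 mice had the skin cut and closed without a pellet. Both groups kept their testes, so the comparison sets added testosterone and estradiol together against the animals' own hormones, and the share of each hormone in a difference cannot be told apart. Whole tissue was sequenced with no prostate lobe named, and in such bulk samples fewer cells of a type and less RNA per cell cannot be told apart.

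The androgen receptor waits in the cytoplasm in a complex with heat shock protein 90 and its co-chaperones, and after binding testosterone or the stronger dihydrotestosterone it enters the nucleus and binds DNA as a pair. The receptors for glucocorticoids, mineralocorticoids and progesterone recognise nearly the same DNA letters. Several of the 8 genes, with Fkbp5, Zbtb16 and Sgk1 the best known of them, are therefore also classic responders to glucocorticoids. In the prostate these targets serve stress and hormone feedback, cell growth, metal handling and cell-surface proteolysis.

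Read counts on genes totalled 14816146 to 16555549 per mouse. All 8 genes passed the filter on low counts, which left 15580 genes for testing. The groups were compared with edgeR's quasi-likelihood test on counts, with Benjamini-Hochberg adjustment across the 15580 genes. A gene was taken to have risen or fallen when its adjusted p was under 0.05. Levels in single mice are given as CPM, the count of a gene as a rate per library total, after scaling by the trimmed mean of M-values (TMM), and each ± is a SD over 3 mice. Transcripts of the seminal vesicle, the neighbouring gland, stood out in 1 mouse of each group. The summed level of 5 of its secretory genes was 10260 CPM in CON mouse 2 and 641.5 CPM in T + E2 mouse 2. It was 0.6282 to 3.837 CPM in the other 4 mice. The 8 genes and the calls of the wider androgen-responsive and glucocorticoid lists were therefore also read without these libraries. Other lists, and single genes outside the 8, are given only with these libraries in.

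Fkbp5, Steap4 and Sgk1 rose in the T + E2 group, none of the 8 genes fell, and 5 did not pass the test. Steap4 rose 2.04-fold, Fkbp5 1.94-fold and Sgk1 1.43-fold. Tmprss2 and Zbtb16 stood at nearly the same mean level in both groups, and Ndrg1, Eaf2 and Camkk2 had lower means after hormone treatment that did not pass the adjusted threshold. Over all tested genes, 10.4% rose and 9.25% fell. The median log2 fold change of the 8 genes was 0.01 and that of all tested genes -0.0021. By the study's stricter definition of a differentially expressed gene (DEG), which adds an absolute log2 fold change over 1, only Steap4 of the 8 was called, where 4.27% of all tested genes were DEGs with higher and 3.38% with lower expression. The 3 mice of one group lay entirely on one side of the 3 mice of the other for 6 of the 8 genes, against 40.7% of all tested genes.

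**Figure D1:**
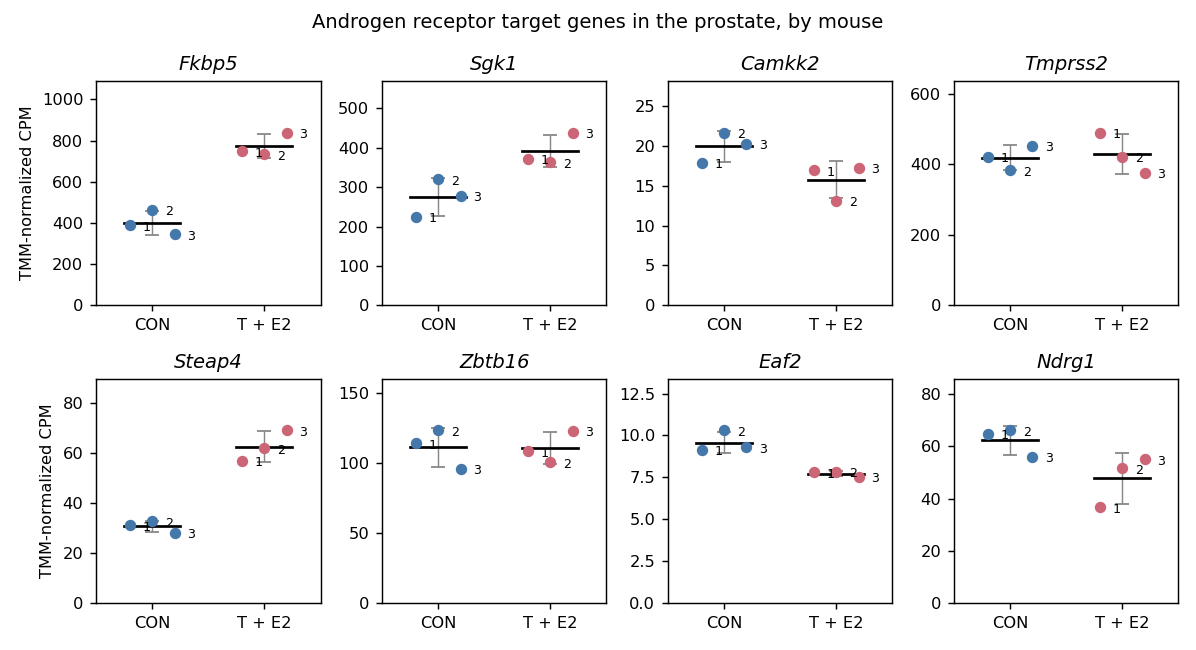
TMM-normalized CPM of each of the 8 genes (vertical axes start at 0) in the CON and T + E2 groups, with 1 numbered point per mouse, the mean as a black bar and the SD as a grey error bar (n = 3). The groups are apart for Fkbp5, Sgk1 and Steap4 with the T + E2 mice higher, apart for Camkk2, Eaf2 and Ndrg1 with the T + E2 mice lower, and mixed for Tmprss2 and Zbtb16.

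The DNA just before the start sites of the 3 genes that rose is shown because the androgen receptor binds a defined set of letters, and one of these stretches holds a full match. Windows of 300 bases (250 before the start to 50 after it) were available from RefSeq on build GRCm38.p6 for 6 of the 8 genes, with 13 start sites in all. Each was searched on both strands for the full palindromic element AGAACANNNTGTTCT and for a single arm of it, AGAACA. A full element contains a pair of such arms, which were counted as single arms as well. In the lines that follow, the 250 bases before the start are written 5′ to 3′ on the gene's own strand, and capitals mark single arms and the full element.
Sgk1, start site 5, chr10:21993640-21993889, plus strand: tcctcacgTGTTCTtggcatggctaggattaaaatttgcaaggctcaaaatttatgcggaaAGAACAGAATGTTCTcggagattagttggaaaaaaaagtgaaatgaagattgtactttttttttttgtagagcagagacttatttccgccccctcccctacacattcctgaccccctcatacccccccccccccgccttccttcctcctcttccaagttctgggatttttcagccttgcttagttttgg
Steap4, chr5:7960222-7960471, plus strand: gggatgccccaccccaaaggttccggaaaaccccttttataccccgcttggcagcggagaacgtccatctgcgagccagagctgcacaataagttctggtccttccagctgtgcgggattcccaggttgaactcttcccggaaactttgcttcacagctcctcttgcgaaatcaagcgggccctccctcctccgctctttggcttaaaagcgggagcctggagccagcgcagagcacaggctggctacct
Fkbp5, chr17:28486150-28486399, minus strand: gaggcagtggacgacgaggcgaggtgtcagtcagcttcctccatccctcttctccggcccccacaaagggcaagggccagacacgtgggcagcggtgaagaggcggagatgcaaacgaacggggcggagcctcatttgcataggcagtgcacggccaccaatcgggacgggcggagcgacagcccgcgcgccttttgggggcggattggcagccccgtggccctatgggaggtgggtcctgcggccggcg

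The Sgk1 stretch holds the full element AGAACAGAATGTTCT at chr10:21993701-21993715, 189 bases before start site 5 of the 6 annotated for Sgk1 and 965 bases before start site 6. Among all 32851 promoter windows of the RefSeq table only 3 (0.00913%) hold a full element, the one before Sgk1 included. Single arms are common, with 6233 windows (19%) holding at least 1. They were found in 3 of the 13 windows of these genes, and all 3 were windows of Sgk1. The single windows of Fkbp5 and Steap4, the genes with the larger rises, hold neither the full element nor a single arm. Neither do the windows of Tmprss2, Eaf2 and Camkk2. The Fkbp5 window, chr17:28486100-28486399, lies inside the gene as deposited, whose 5′ end on the minus strand is at 28517524. The DNA before that end was not searched. The oestrogen receptor's element GGTCANNNTGACC was found in 0 of the 13 windows and in 0.07% of all windows. These are exact matches of letters in short windows, so a variant with other letters in an arm was not counted. Receptor binding was not measured in these mice.

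Fkbp5 (ENSMUSG00000024222, chr17:28399095-28517524 on GRCm38) encodes FKBP51, a co-chaperone of heat shock protein 90 that binds the complexes of steroid receptors and takes part in a feedback loop on glucocorticoid action. Its level was 388.9, 464.2 and 345.1 CPM in the CON mice and 748.6, 733.3 and 838 CPM in the T + E2 mice. The lowest T + E2 mouse stood well above the highest CON mouse. Group means were 399.4 ± 60.2 and 773.3 ± 56.6 CPM, so the log2 fold change was 0.95 (SE 0.13, 95% interval 0.65 to 1.25), with an adjusted p of 0.00205 in edgeR's quasi-likelihood test. Among the partners of FKBP51, Phlpp1, a phosphatase that takes phosphate off Akt and is held next to it by FKBP51, fell by 0.68 on the log2 scale (adjusted p = 0.00403, same test). Fkbp4, the related co-chaperone FKBP52, did not pass the test.

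Sgk1 (ENSMUSG00000019970, chr10:21882184-21999903) encodes a serum- and glucocorticoid-regulated kinase that controls ion channels and cell survival. Its level was 224.9, 320 and 278.6 CPM in the CON mice and 372.4, 363.3 and 438.3 CPM in the T + E2 mice. The groups did not overlap, but the highest CON mouse, replicate 2, came close to the lowest T + E2 mouse. Group means were 274.5 ± 47.7 and 391.3 ± 41 CPM, so the log2 fold change was 0.51 (SE 0.15, 95% interval 0.18 to 0.85), with an adjusted p of 0.0433 in edgeR's quasi-likelihood test. This call is the least firm of the 3, since the adjusted p was above 0.05 in 11 of 17 alternative settings, 5 of the 6 that left out 1 mouse included, with adjusted p-values from 0.00437 to 0.106 over all 17. Without CON mouse 2 and T + E2 mouse 2, the log2 fold change of Sgk1 was 0.69 with an adjusted p of 0.051. Nedd4l, the ubiquitin ligase that Sgk1 phosphorylates in the control of the epithelial sodium channel, rose from 47.3 ± 7.61 to 88.5 ± 7.24 CPM (log2 fold change 0.90, SE 0.13, adjusted p = 0.00292).

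Camkk2 (ENSMUSG00000029471, chr5:122731170-122779409) encodes the calcium-calmodulin-dependent kinase kinase that activates AMP-activated protein kinase (AMPK) and is known as an androgen receptor target in human prostate cancer cells. Its level was 17.86, 21.65 and 20.29 CPM in the CON mice and 16.93, 13.08 and 17.27 CPM in the T + E2 mice. Every T + E2 mouse lay under every CON mouse, by a narrow margin between the highest T + E2 and the lowest CON mouse. The log2 fold change was -0.34 (SE 0.14, 95% interval -0.67 to -0.011), and the adjusted p of 0.134 missed the threshold. Without CON mouse 2 and T + E2 mouse 2, the mice that were highest and lowest for this gene, the log2 fold change was -0.16. The RNA of a substrate did pass the test, as Prkaa2, the alpha 2 catalytic subunit of AMPK, rose from 23.5 ± 4.93 to 71.3 ± 7.29 CPM (log2 fold change 1.60, SE 0.16, adjusted p = 0.000538).

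Steap4 (ENSMUSG00000012428, chr5:7960457-7982213) encodes a metalloreductase of the plasma and endosomal membranes that reduces iron and copper. Its level was 31.09, 32.61 and 28.02 CPM in the CON mice and 56.74, 61.79 and 68.93 CPM in the T + E2 mice. It had the widest gap of the 8 genes relative to its spread, with a mean of 30.6 ± 2.34 CPM against 62.5 ± 6.13 CPM. This amounted to a log2 fold change of 1.03 (SE 0.11, 95% interval 0.78 to 1.28), with an adjusted p of 0.000585 in edgeR's quasi-likelihood test. The estimate lay close to the fold limit of a DEG and ranged from 0.92 to 1.10 over the 17 alternative settings. The related reductase genes Steap1, Steap2 and Steap3 stood on the list of relatives, and none of them passed the test, Steap1 coming nearest (-0.60, adjusted p = 0.0738).

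Tmprss2 (ENSMUSG00000000385, chr16:97564684-97611195) encodes a serine protease of the luminal cell surface, and in men its androgen-driven promoter is often fused to ERG in prostate cancer. Its level was 420.7, 382.7 and 453.3 CPM in the CON mice and 489.5, 421.1 and 375.9 CPM in the T + E2 mice. The highest and the lowest of the 6 mice were both T + E2 mice. The log2 fold change was 0.03 (SE 0.12, 95% interval -0.25 to 0.32, adjusted p = 0.875). Its sign was not stable, being negative under total-count scaling, in both tests on FPKM values, without CON mouse 2, without T + E2 mouse 1 and without both mice with seminal vesicle transcripts. The related membrane serine proteases Tmprss4 and Hpn did rise. Tmprss4 went from 5.37 ± 1.08 to 24.6 ± 7.92 CPM (log2 fold change 2.20, SE 0.25, adjusted p = 0.000916), and Hpn, the gene of hepsin, from 4.67 ± 0.65 to 9 ± 0.7 CPM (log2 fold change 0.94, SE 0.17, adjusted p = 0.00744).

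Zbtb16 (ENSMUSG00000066687, chr9:48654311-48835945) encodes the zinc finger repressor PLZF, which restrains growth in several tissues and is strongly induced by glucocorticoids and androgens in cell culture. Its level was 114.1, 123.2 and 95.92 CPM in the CON mice and 108.4, 100.5 and 122.9 CPM in the T + E2 mice. The ranges of the groups lay almost on top of each other. The log2 fold change was -0.0067 (SE 0.12, 95% interval -0.29 to 0.28, adjusted p = 0.975). Its sign turned positive without any one of CON mice 1 and 2 and T + E2 mice 1 and 2.

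Eaf2 (ENSMUSG00000022838, chr16:36792884-36875003) encodes a partner of the ELL elongation factors that was described in the rat and human prostate as an androgen-induced gene that holds growth back. Its level was 9.129, 10.3 and 9.297 CPM in the CON mice and 7.81, 7.845 and 7.533 CPM in the T + E2 mice. The T + E2 mice were all lower, and nearly equal to each other. On the log2 scale the fold change was -0.31 (SE 0.14, 95% interval -0.62 to 0.0027, adjusted p = 0.148). Aff4, a scaffold of the super elongation complex that ELL proteins belong to, rose from 229.2 ± 48.5 to 491.7 ± 49.4 CPM (log2 fold change 1.10, SE 0.16, adjusted p = 0.00271).

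Ndrg1 (ENSMUSG00000005125, chr15:66929321-66969640) encodes a cytoplasmic protein of differentiated epithelium whose gene responds to androgens and to hypoxia, and which is itself a substrate of the kinase Sgk1. Its level was 64.77, 66.13 and 56.09 CPM in the CON mice and 36.7, 51.69 and 55.07 CPM in the T + E2 mice. All T + E2 mice lay under all CON mice, and T + E2 mouse 1 lay far under the other two of its group. The log2 fold change was -0.38 (SE 0.16, 95% interval -0.74 to -0.022, adjusted p = 0.125), and without T + E2 mouse 1 it was -0.22. Of 11 other tested hypoxia-responsive genes, 4 rose, 0 fell and 7 did not pass the test, with a median log2 fold change of 0.20. Among all tested genes, 10.4% rose and 9.25% fell. The 4 were Egln3, an oxygen-sensing hydroxylase (1.00 on the log2 scale, adjusted p = 0.0197), the glycolytic enzyme Pgk1 (0.85, adjusted p = 0.0075), the mitophagy receptor Bnip3 (0.50, adjusted p = 0.0278) and the glucose transporter Slc2a1 (0.31, adjusted p = 0.0331).

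**Figure D2:**
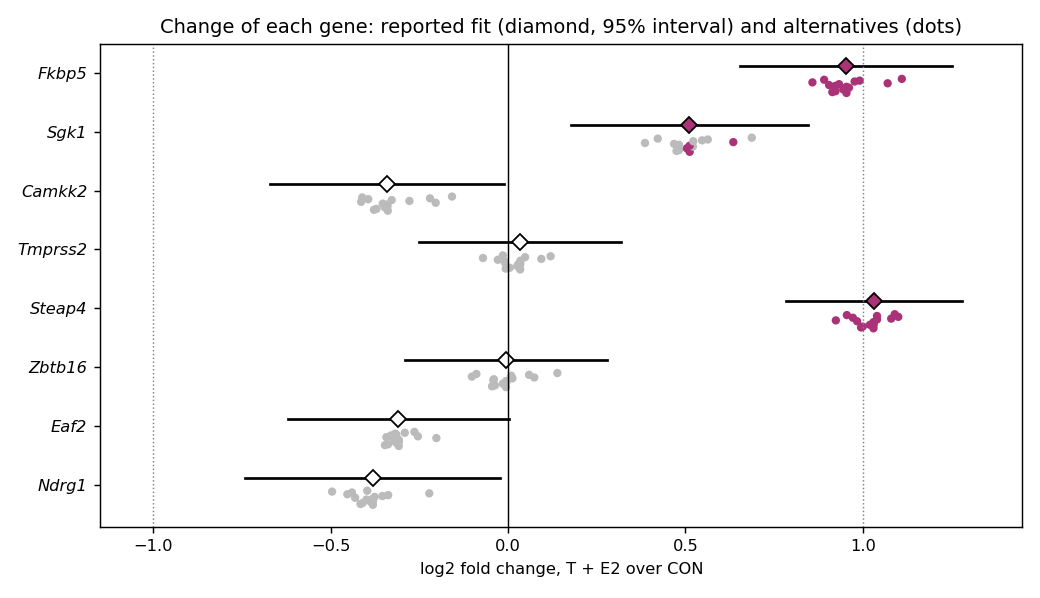
Log2 fold change (T + E2 over CON, horizontal axis) of each of the 8 genes, with a diamond for the estimate, a line for its 95% interval and dots for the 17 alternative settings, in purple where the adjusted p was under 0.05, and dotted lines at the fold limits of a DEG. Fkbp5 and Steap4 stayed between 0.86 and 1.11 in every setting, while the points of Tmprss2 and Zbtb16 fell on both sides of 0.

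Between genes, levels are given as the deposited FPKM, which divides the reads of a gene by a length and by the depth of the library. That length, as implied by counts and FPKM, was 3159 bases for Tmprss2, 11139 for Fkbp5, 6116 for Eaf2 and 15203 for Camkk2. For some genes it was longer than the gene itself (9084 bases for Hspa8 at chr9:40800984-40805200), so the order below may depend on it. By CPM, mean Fkbp5 was above Tmprss2 in the T + E2 group (773.3 against 428.8), and Camkk2 above Eaf2 in both groups. By FPKM, Tmprss2 stood highest of the 8 in both groups. Its mean was 134.3 FPKM in the CON group and 133.7 FPKM in the T + E2 group, higher than 98.6% and 98.4% of tested genes. Fkbp5 followed with 36.4 and 68.6 FPKM, Sgk1 with 27.2 and 37.8 FPKM, and Zbtb16 with 22.1 and 21.4 FPKM. Steap4 had 9.83 and 19.6 FPKM and Ndrg1 7.47 and 5.6 FPKM. Eaf2, with 1.59 and 1.25 FPKM, and Camkk2, with 1.33 and 1.02 FPKM, were at the bottom, the latter above only 28% and 23.7% of tested genes. The order was the same in both groups. In the CON group Fkbp5 overlapped with Sgk1 and Sgk1 with Zbtb16 over the 3 mice, and in the T + E2 group Zbtb16 overlapped with Steap4, which had been far below it in the CON group.

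**Figure D3:**
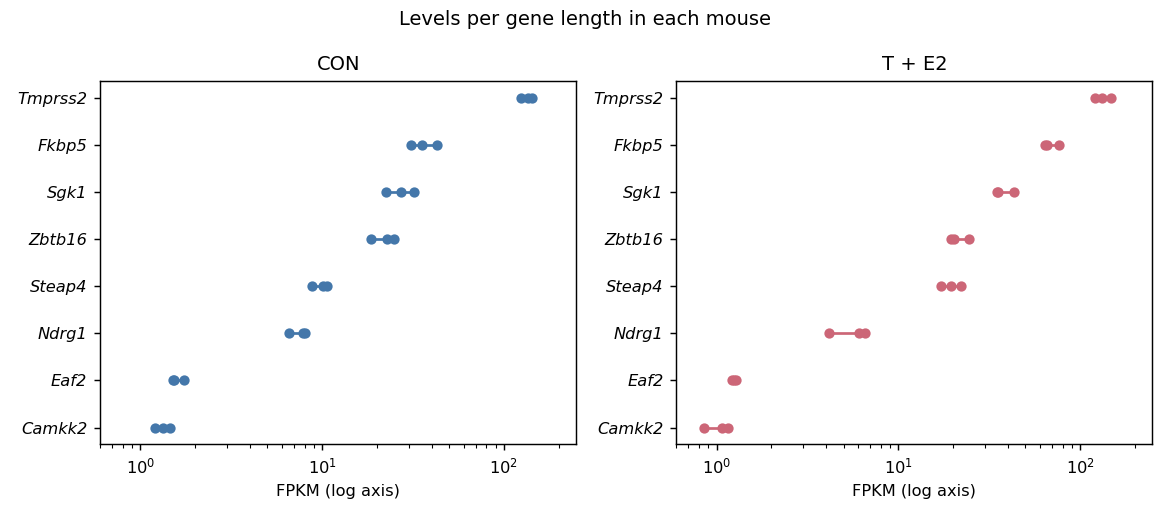
FPKM of the 8 genes on a logarithmic axis, ordered by level, with the CON mice in the left panel and the T + E2 mice in the right one, 1 point per mouse and a line from the lowest to the highest mouse. Tmprss2 is at the top near 134 FPKM and Camkk2 at the bottom near 1 FPKM, and Steap4 of the T + E2 mice reaches the range of Zbtb16.

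The genes whose pattern over the 6 mice came nearest to each of the 8 were sought among all tested genes by the root mean square difference of log2 CPM after centring on each gene's mean. Steap4 had the closest match of the genes that rose, Syne2, the nuclear envelope protein nesprin 2 (0.0249), followed by the potassium channel Kcnk5 (0.0529). For Fkbp5 the nearest were Ccbe1 (0.0637) and Nedd4l (0.0655), the same ubiquitin ligase that stands among the partners of Sgk1. The pair for Sgk1 was Fbp2 (0.0399) and Gpc4 (0.0407). Zbtb16 lay nearest to Wwc2 (0.0281) and Nck2 (0.0348), and Tmprss2 to E130311K13Rik (0.0434) and Ecd (0.0455). Eaf2 lay nearest to Trim34a (0.031) and Rufy1 (0.0354), Camkk2 to Rasgrp2 (0.037) and Cog8 (0.0395), and Ndrg1 to Lrrc8c (0.0532) and Gm43667 (0.0571). These distances describe 6 mice only.

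The enzymes that make the androgen receptor's ligand and the receptor's chaperones and cofactors gave 23 tested genes. Of these, 0 rose, 4 fell and 19 did not pass the test, with a median log2 fold change of -0.15. Over all tested genes, 10.4% rose and 9.25% fell. Gata2, a pioneer factor of androgen receptor binding sites, fell from 381.3 ± 36.1 to 141.3 ± 29.1 CPM (log2 fold change -1.43, SE 0.16, adjusted p = 0.0007). Smaller falls were seen in the receptor's chaperones Hsp90ab1 (-0.46, adjusted p = 0.0426) and Ptges3, the p23 co-chaperone (-0.47, adjusted p = 0.0461), and in the histone demethylase Kdm1a (-0.42, adjusted p = 0.0269).

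A wider list of 60 other androgen-responsive genes gave no common direction. Of the 58 that could be tested, 10 rose, 11 fell and 37 did not pass the test, with a median log2 fold change of 0.07. Of all tested genes 10.4% rose and 9.25% fell, a smaller share each way than in this list. The list was chosen with earlier results of these data known, and the difference in shares was not tested. Gsr, the glutathione reductase gene, rose 5.6-fold, from 36.4 ± 4.03 to 203.7 ± 11.9 CPM (log2 fold change 2.49, SE 0.11, adjusted p = 1.4e-05). Tnfaip8, an inhibitor of apoptosis, rose from 12.4 ± 2.72 to 44.3 ± 2.45 CPM (log2 fold change 1.83, SE 0.15, adjusted p = 0.0002), and Dbi, the acyl-CoA binding protein, from 37.9 ± 6.97 to 99.6 ± 22 CPM (log2 fold change 1.40, SE 0.19, adjusted p = 0.00226). Sms, the spermine synthase gene, fell from 21.2 ± 2.19 to 8.97 ± 0.631 CPM (log2 fold change -1.24, SE 0.13, adjusted p = 0.000561).

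**Figure D4:**
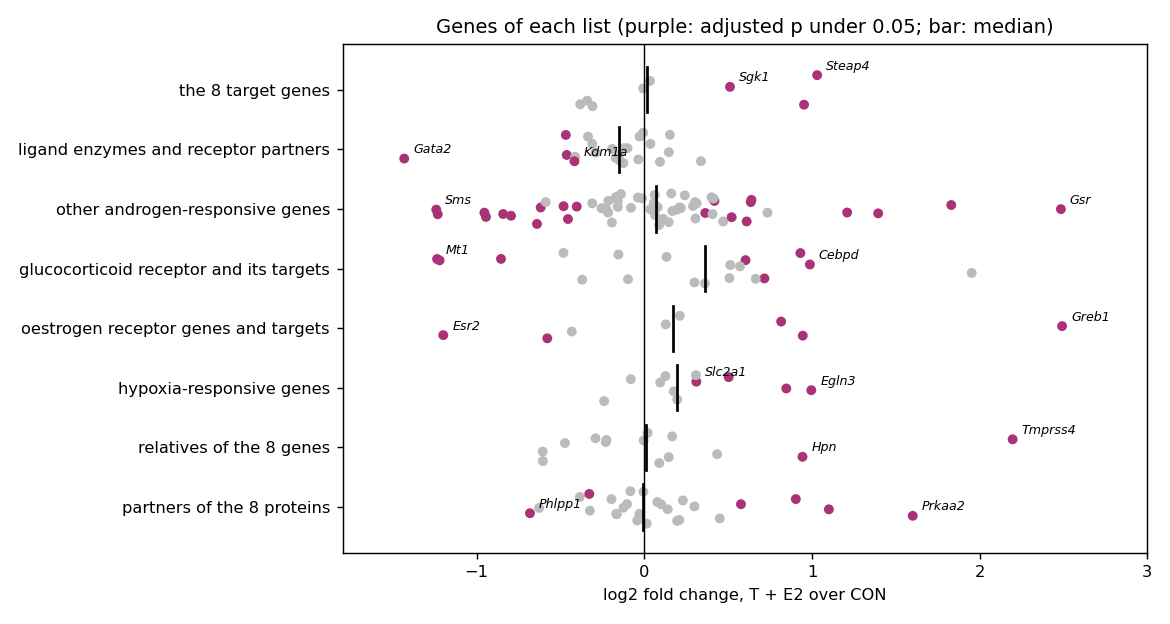
Log2 fold change (T + E2 over CON, horizontal axis) of every tested gene of each list, 1 row per list and 1 point per gene, in purple where the adjusted p was under 0.05, with the list's median as a bar and the called genes at the ends named. The 8 genes and the 58 other androgen-responsive genes scatter to both sides of 0, with medians of 0.01 and 0.07.

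Since Fkbp5, Sgk1 and Zbtb16 also respond to glucocorticoids, the glucocorticoid receptor and its other targets were listed beside them. The list also holds the mineralocorticoid receptor gene Nr3c2 and the enzyme genes Hsd11b1 and Hsd11b2. Nr3c1, the receptor, was at 46.6 ± 5.65 and 43.6 ± 6.92 CPM (log2 fold change -0.10, SE 0.14, adjusted p = 0.669). Of the 19 tested genes of this list, 4 rose, 3 fell and 12 did not pass the test, with a median log2 fold change of 0.36. Over all tested genes, 10.4% rose and 9.25% fell. Hsd11b1 was among the 4 that rose and Nr3c2 among the 3 that fell. Cebpd, a transcription factor, rose by 0.99 (adjusted p = 0.0119) and Errfi1, an inhibitor of the epidermal growth factor receptor, by 0.93 (adjusted p = 0.00343) on the log2 scale. Mt1, a metal-binding protein whose gene also answers to zinc, fell from 950.6 ± 112 to 403.6 ± 79.6 CPM (log2 fold change -1.24, adjusted p = 0.00158), and Nr3c2, the mineralocorticoid receptor, from 23.2 ± 7.61 to 9.96 ± 4 CPM (log2 fold change -1.22, adjusted p = 0.0349) with overlapping groups. The 7 calls of this list became 4 without T + E2 mouse 2, and 2 without both mice that carried seminal vesicle transcripts. Calls over all tested genes went from 3061 to 1978 and 1354 in the same fits, which held fewer mice. Corticosteroid levels were not analysed here.

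Oestrogen signalling was listed because estradiol was part of the pellet. Of 8 tested genes, 3 rose, 2 fell and 3 did not pass the test, with a median log2 fold change of 0.17. Greb1, a classic oestrogen target that androgens can also induce, rose from 26.7 ± 10.1 to 150 ± 17.4 CPM (log2 fold change 2.49, SE 0.26, adjusted p = 0.000625). Pgr, the progesterone receptor, rose by 0.95 (adjusted p = 0.0316) and Esr1 by 0.82 (adjusted p = 0.0039), while Esr2 fell by 1.20 (adjusted p = 0.0033) on the log2 scale. The other gene that fell was Cxcl12 (-0.58, adjusted p = 0.0236 in edgeR's quasi-likelihood test). Myc (-0.43), Igfbp4 (0.13) and Gper1 (0.21) did not pass. Among the 14 tested relatives of the 8 genes, 2 rose (Tmprss4 and Hpn, above), 0 fell and 12 did not pass the test, with a median of 0.008. Among 27 partners and substrates, 4 rose, 2 fell and 21 did not pass the test, with a median of -0.0053. For each list of this paragraph, the share over all tested genes was 10.4% rising and 9.25% falling.

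Markers of cell types were read in the same mice, since most of the 8 genes are expressed in luminal epithelium. The summed level of 6 luminal markers was 2865 to 3487 CPM in the CON group and 2905 to 2982 CPM in the T + E2 group, and 1 rose (Epcam), 2 fell (Cd24a and Krt18) and 3 did not pass the test. Of 4 basal markers, 1 rose (Trp63), and their sum was 154.7 to 256.8 CPM against 244.8 to 312.5 CPM. Of 5 smooth muscle markers, 2 fell (Acta2 and Des), and the sum was 3979 to 4901 CPM against 3475 to 3801 CPM. Beside these counts, 10.4% of all tested genes rose and 9.25% fell. None of the fibroblast (5), endothelial (4), leukocyte (6), seminal vesicle (3), skeletal muscle (4) or fat (3) markers that could be tested passed. Leukocyte markers summed to 55.24 to 142.9 CPM in the CON and 109.2 to 203.1 CPM in the T + E2 mice, and fat markers to 52.13 to 269.1 and 37.13 to 76.3 CPM, with the highest value in CON mouse 2. Fibroblast markers summed to 1232 to 1518 and 1401 to 1744 CPM, endothelial markers to 72.05 to 101.8 and 90.8 to 115 CPM, and skeletal muscle markers to 66.62 to 265.1 and 83.74 to 190.1 CPM. No marker was at 0 in all 6 mice. The part of differences in these markers in the rises of Fkbp5, Steap4 and Sgk1 was not tested. Without both mice that carried seminal vesicle transcripts, Fkbp5 and Steap4 still passed the test.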

How the data were processed

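RNA from the prostates of 6 mice (3 per group) was sequenced as paired-end TruSeq libraries. The authors deposited whole-number read counts per gene, not normalized, and FPKM values, which fit those counts divided by a length per gene and the library total. TopHat, Bowtie2 and HTSeq stand in the submitters' processing notes, while versions, annotation and strand setting are not given in the sources used here. Groups and replicate numbers came from the sample titles.

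The count test was edgeR 4.0.16 under R 4.3.3 (filterByExpr, minimum count 10 and minimum total 15, TMM scaling, glmQLFit and glmQLFTest without covariates). The study's methods name DESeq2, which was run as an alternative (version 1.42.0), as was limma 3.58.1 on log2(FPKM + 0.1) and log2(FPKM + 1), both keeping genes that reached an FPKM of 0.1 in 3 or more samples. Standard errors are the absolute log2 fold change over the root of F. Other alternatives were total-count, upper-quartile and median-of-ratios scaling, no filter, an FPKM minimum of 1, protein-coding genes, DEG thresholds, a replicate block and each mouse left out. The libraries with seminal vesicle transcripts were left out as an alternative chosen after seeing the data. The main edgeR fit was tried on simulated counts, and the alternatives were not. Counts of mice within a group differed beyond sampling noise (chi-square per degree of freedom 16.7 to 36.4), so all 6 were kept as separate samples. An exact permutation test of 3 against 3 mice cannot give a p below 0.1.

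Named genes are the 8 targets, up to 4 called genes per list with the largest absolute log2 fold change, Nr3c1 and the 2 nearest genes of each target. Marker genes are named where called. Fkbp4, the Steap relatives, Hspa8, Hsd11b1, Hsd11b2, Per1, Klf9, Dusp1, Cxcl12, Myc, Igfbp4 and Gper1 were named after their values were seen. Some genes are not reported here and were left out of the lists. Targets and lists were chosen with earlier results of these data known. Coordinates are those of the deposited table on GRCm38. Ndrg1 shares 419 and 137 exon bases with antisense genes Gm17035 and Gm2895, both at 0 counts. Transcripts of Fkbp5, Eaf2 and Sgk1 hold stretches similar to 332, 24 and 7 other genes, up to 191, 522 and 225 bases long. The effect of this similarity on their counts was not tested. Plots were made in Python 3.11.15 (matplotlib 3.10.9).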

Additional observations from a re-analysis of the deposited data

How the results depend on the processing

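Fkbp5 and Steap4 kept their direction and their call in all 17 alternatives, with log2 fold changes of 0.86 to 1.11 and 0.92 to 1.10. Ndrg1, Eaf2 and Camkk2 stayed negative and uncalled in all 17. Of the 8 targets, 3 were called, and 1 with the thresholds of a DEG. The log2 fold change of Sgk1 no longer passed the threshold with total-count scaling (0.475), upper-quartile scaling (0.482), the replicate block (0.521), limma on log2(FPKM + 0.1) (0.482) and on log2(FPKM + 1) (0.468), or without both libraries that carried seminal vesicle transcripts (0.687). With 1 mouse left out it was 0.386 to 0.635, and the call was kept only without CON mouse 2. Tmprss2, not called in any setting, turned negative with total-count scaling (-0.00646), limma on log2(FPKM + 0.1) (-0.00912) and log2(FPKM + 1) (-0.00904) and without both libraries (-0.0144), and ranged from -0.0706 to 0.12 with 1 mouse left out. Zbtb16, also uncalled, ranged from -0.102 to 0.074 with 1 mouse left out and was 0.139 without both libraries. Of the glucocorticoid list, 7 genes were called, against 4 in both limma fits, 4 to 6 with 1 mouse left out and 2 without both libraries. The wider androgen-responsive list had 21 calls, 15 to 23 in its alternatives and 16 without both libraries. The causes were not tested.

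Over all genes 3061 were called, against 2174 with the replicate block, 1929 without CON mouse 3, 1978 without T + E2 mouse 2 and 1354 without both libraries, where fewer samples entered the fit. The replicate numbers name different mice, and the deviations of mice with the same number correlated at -0.0516, 0.0275 and 0.0463, so they were not taken as pairs. With the replicate block 2 of the 8 targets were called. Other scalings moved the median of all genes by at most 0.038 in size (-0.038 with total counts). With 3 mice per group, the intervals of Tmprss2 and Zbtb16 leave changes of up to about 0.3 on the log2 scale undetected.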

Other observations

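Single mice differed in a way that several of the 8 genes shared. Within the CON group, mouse 2 had the highest level of 7 of the 8 genes, all but Tmprss2, whereas 30.7% of all tested genes were highest in that mouse. Within the T + E2 group, mouse 3 had the highest level of 6 of the 8, namely Fkbp5, Ndrg1, Zbtb16, Steap4, Camkk2 and Sgk1, against 34.3% of all tested genes. CON mouse 2 is also the mouse with the most seminal vesicle, fat and skeletal muscle transcripts (265.1 CPM of the last). T + E2 mouse 3 had 1.2 CPM of seminal vesicle markers, and the most skeletal muscle transcripts of its group (190.1 CPM). The 8 genes share libraries, so these counts are a description with no test.

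The spread between mice of a group was smallest for Eaf2, with a pooled SD of 0.07 on the log2 scale, and largest for Ndrg1, with 0.24. The median over all tested genes was 0.18. Eaf2 had the lowest CPM of the 8 genes, and its 3 T + E2 mice lay between 7.533 and 7.845 CPM. These levels rest on 113 to 129 reads per mouse, and the share of read sampling in the spread was not tested.

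Tsc22d3, which encodes the glucocorticoid-induced leucine zipper, was picked here after its values were seen. It stood at 74.42, 112.4 and 82.98 CPM in the CON mice and 114, 145 and 184.5 CPM in the T + E2 mice (log2 fold change 0.72, SE 0.21, adjusted p = 0.0448 in edgeR's quasi-likelihood test). It is 1 of the 4 genes of the glucocorticoid list that rose, where 3 fell and 12 did not pass. The 12 include Per1 (-0.15, adjusted p = 0.6, same test), Klf9 (0.13, adjusted p = 0.461) and Dusp1 (-0.37, adjusted p = 0.269). The 7 calls of that list became 2 without both mice that carried seminal vesicle transcripts. Calls over all tested genes went from 3061 to 1354 in that fit, which held fewer mice.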
